A study of Rattus norvegicus with 3 samples.

Results

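The 10 genes described here encode the machinery that makes and loads peptides for class I histocompatibility molecules: the immunoproteasome subunits Psmb8, Psmb9 and Psmb10, the proteasome activator subunits Psme1 and Psme2, the peptide transporter subunits Tap1 and Tap2, the chaperone Tapbp, the transactivator Nlrc5 and the class I light chain B2m. They were taken by name, with every probe set that carries their symbol alone in the platform annotation. All 10 were found, with 13 probe sets, among 14218 genes with such a symbol and 31099 probe sets in all. Of these, 9 could be measured against the saline pool, the 1 control array that both treatments share. All 9 were higher in the heparin pool and in the peptide pool than in the saline pool. Their differences ran from 0.06 on the log2 scale (1.04-fold) for B2m with peptide to 1.58 for Psmb8 with heparin. Of all measured genes, 25.8% were higher by any amount with heparin and 32% with peptide. The constitutive counterparts of the immunoproteasome subunits that could be read differed from control by at most 0.11 on the log2 scale.

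The study took kidneys from male Wistar rats (370 to 508 g, age not stated) to model donors who died of cardiac arrest. Kidneys of all groups had 20 min of warm ischaemia, about 17 ± 0.7 h of cold storage in University of Wisconsin solution and about 5 h 43 min ± 21 min of reperfusion from the femoral artery of an anaesthetised recipient rat (whether these errors are SDs is not stated). The control group received normal saline at 1 ml/h, the heparin group heparin at 100 U/ml/h, and the peptide group peptide 2, modelled on the part of the chemokine CCL5 that binds heparin, at 0.5 mg/ml. Each group had 7 recipients. The question was whether heparin or the peptide had anti-inflammatory effects. RNA of 3 kidneys per group, those with the best RNA, was pooled and hybridised to 1 array per group, and no kidney without reperfusion is among the 3 arrays. A pool averages its kidneys, so the spread between animals cannot be read. Since a group is 1 array, no difference could be checked in replicates, and no p-value or error is given. In whole-kidney RNA, a change in the number of cells of a type and a change in RNA per cell cannot be told apart.

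Class I molecules show peptides from inside a cell to CD8+ T cells. The proteasome cuts cytosolic proteins into these peptides. Interferon replaces its catalytic subunits Psmb5, Psmb6 and Psmb7 by Psmb8, Psmb9 and Psmb10, and Psme1 and Psme2 form a cap that opens the core. Tap1 and Tap2 pair to carry the peptides into the endoplasmic reticulum, where Tapbp (tapasin) bridges the transporter and the empty class I molecule, whose heavy chain is held by B2m. Nlrc5 is drawn to the promoters of class I genes and of several of these partners and raises their transcription. Tubular epithelium and endothelium of the kidney carry class I molecules, and interferon raises them there.

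In the rat gene table of RefSeq, Tap2, Psmb8, Tap1 and Psmb9 are direct neighbours in this order on chromosome 20, within the histocompatibility region, and Tapbp lies on the same chromosome. Psmb10 and Nlrc5 lie on chromosome 19, Psme1 and Psme2 on chromosome 15 with 1 gene between them, and B2m on chromosome 3. RefSeq promoter sequences of build GRCr8 were at hand for 9 of the 10 members, all but Nlrc5. They are shown because the members were higher together and because the best known interferon-responsive element is short enough to be read. The element searched was the core of the interferon-stimulated response element (ISRE), which is GAAA, any 2 bases and GAAA again, on either strand. In the 250 bases before the annotated start it was present in 6 of 9 member promoters, against 3.41% of 33469 promoters in the table. Counting 50 bases after the start as well, it was present in 7 of 9, with Psmb8 added, against 3.92% of all. The stretches holding it, 30 bases each, are given here in the direction of transcription with the matching letters in capitals.

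Psmb8, chr20:4657016-4657045, minus strand: gtgctgtggcTTTCGCTTTCacttccttgt
Psmb10, chr19:50743346-50743375, minus strand: aagcaaaggcGAAAGTGAAAgagaagatgc
Psmb10, chr19:50743293-50743322, minus strand: ctaagtggggggtGAAAGCGAAAgtaggaa
Psme2, chr15:33052785-33052814, minus strand: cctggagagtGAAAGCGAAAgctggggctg
Tap2, chr20:4652318-4652347, minus strand: gcagcgaagtGAAAGCGAAAgcccgggacc
Tapbp, chr20:4967881-4967910, minus strand: tttgaggGAAAATGAAAGTGAAAggaaaca
B2m, chr3:129549170-129549199, plus strand: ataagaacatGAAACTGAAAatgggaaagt

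The letters GAAAGCGAAA occurred in Psmb10, Psme2 and Tap2, and their reverse complement across the start of Psmb8. Psmb10 held a match at 73 and another at 17 bases before its start. In Tapbp a pair of overlapping matches began 26 and 20 bases before the start. Tap1 and Psmb9 are read in opposite directions from the interval between them, and the starts used by the table lie 457 bases apart. The windows of this pair are shown because these neighbours held different letters. The ISRE core was found 121 bases before the start of Tap1, in reverse orientation, and was not in the window of Psmb9. The Psmb9 stretch shown holds the first 202 of its 250 bases, so its GC box 25 bases before the start is not in it. The Tap1 match lies between the pair, outside the Psmb9 window. Capitals mark the ISRE core (TTTCGGTTTC), the NF-kB consensus (GGGAC followed at once by TTTCC), and the GC box GGGCGG or its reverse complement.

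Tap1, chr20:4668544-4668793, minus strand: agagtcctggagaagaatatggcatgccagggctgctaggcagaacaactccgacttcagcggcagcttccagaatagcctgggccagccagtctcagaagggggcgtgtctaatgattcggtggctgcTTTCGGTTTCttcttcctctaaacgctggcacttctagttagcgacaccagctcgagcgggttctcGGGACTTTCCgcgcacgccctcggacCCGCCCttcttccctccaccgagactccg
Psmb9, chr20:4668750-4668951, plus strand: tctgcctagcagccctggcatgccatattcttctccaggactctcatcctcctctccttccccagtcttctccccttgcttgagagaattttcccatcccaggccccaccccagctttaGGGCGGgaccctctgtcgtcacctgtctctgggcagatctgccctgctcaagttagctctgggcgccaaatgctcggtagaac

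These NF-kB letters, searched on both strands, were in the windows of Tap1 and B2m and in 0.0956% of all promoters. In B2m they lay in reverse, with 3 bases between them and the ISRE core. The interferon gamma activated site TTCNNNGAA was in the Psmb8 window alone among the members, against 7.67% of all promoters. The CCAAT box was in Psmb8 and B2m (34.0% of all), and the GC box in Psmb9, Psme1, Psme2, Tap1 and Tapbp (30.5% of all, but 59.7% of the genes measured in heparin against control). Apart from the overlapping pair in Tapbp no matches overlapped in these windows. A match is a description of letters and not of a bound site, and the motifs were chosen with the members known. For 6 of the 9 members RefSeq has a start further upstream than the table's, by 9 to 304 bases, so distances depend on the start chosen. It was 304 bases upstream for Psme2, 81 for Tapbp and 18 for Psmb8. The ISRE matches of these 3 genes thus lie after that further start, inside the gene, and not before it. Those of Psmb10, Tap1, Tap2 and B2m lie before it or have no further start.

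**Figure D1:**
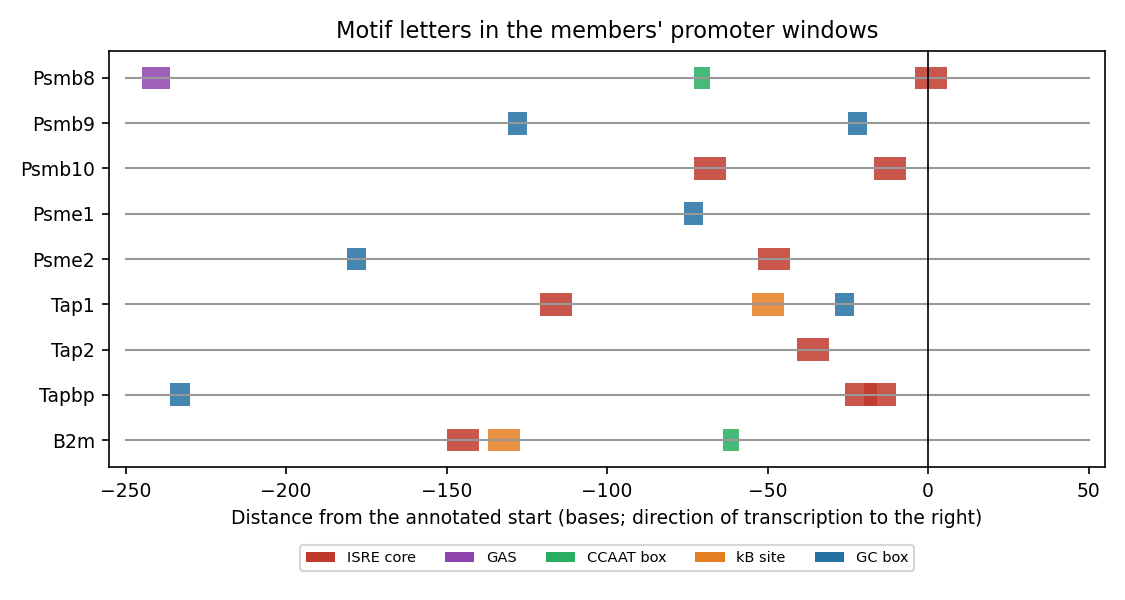
Positions of the searched letters in the promoter windows of 9 members, as distance in bases from the start used in the table (vertical line), with transcription to the right; each coloured block is a match and the grey line is the 300 bases searched. The ISRE core (red) lies in 7 of the 9 windows, across the start in Psmb8, and in the 50 bases after the start only this motif was searched.

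Across the arrays, medians of all probe sets were 4.14 (control), 4.16 (heparin) and 4.14 (peptide) on the log2 scale, and 29.5% to 30.9% of probe sets sat at the common lowest value. A gene is called measured in a comparison when it reached the array median on both arrays. Kidney epithelial markers were present, with 14 of 14 on the array measured in each comparison. Of all 14218 genes, 9236 were measured in heparin against control, 9268 in peptide against control and 9240 between the treatments. The gap between the 3' and 5' control probe sets of beta-actin was 2.33 in control, 2.95 in heparin and 2.34 in peptide, while that of GAPDH was 0.36, 0.32 and 0.37 and that of hexokinase 2.18, 2.18 and 2.28. Whether this wider gap on the heparin array has a part in the heparin differences was not tested.

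The first comparison, heparin against control, asked what heparin did to these transcripts. Of the 9 measured members, 9 were higher in the heparin pool, whereas 25.8% of all 9236 measured genes were higher by any amount, 44.2% were lower and the rest were identical. Psmb8 and Tap1, 2 of the 9, were at least 2-fold higher, against 1.06% of all measured genes. At 1.5-fold the count was 6 of 9, against 3.04% of all genes. The median log2 difference of the members was 0.73 (1.66-fold), and that of all measured genes 0.00 with an SD over genes of 0.32. Peptide was then compared with the same control array. Again 9 of 9 measured members were higher, against 32% of 9268 measured genes (28.5% were lower). Tap1, Tap2 and Psmb9 were at least 2-fold higher (0.723% of all genes), and 5 of 9 members were at least 1.5-fold higher (2.11% of all). The median difference was 0.63 (1.55-fold), with 0.00 and an SD over genes of 0.23 for all measured genes. Since both treatments are set against 1 control array, a low reading of a gene there would raise both of its differences.

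**Figure D2:**
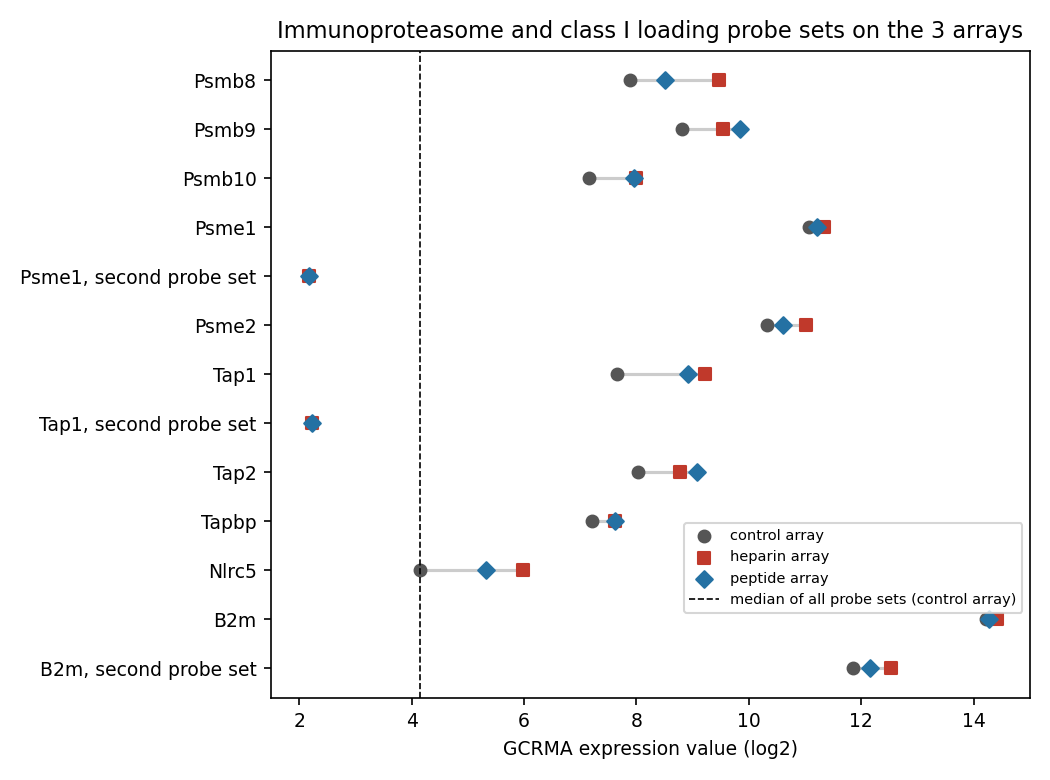
Log2 expression values of all 13 probe sets of the members on the control (circle), heparin (square) and peptide (diamond) arrays, 1 pooled array per group. The control value is the lowest of the 3 for every probe set except the second ones of Psme1 and Tap1, which stay near 2.2 on all arrays; positions of different probe sets are not comparable as amounts.

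Among the catalytic subunits, Psmb8, the chymotrypsin-like subunit, read 7.88 in control, 9.47 in heparin and 8.51 in peptide. The heparin value stands apart, with the peptide value nearer to control. This made Psmb8 higher by 1.58 on the log2 scale with heparin, where 34 of the 9236 measured genes had a larger difference, and by 0.63 (1.55-fold) with peptide. Psmb9, which takes the place of Psmb6, read 8.82 in control, 9.54 in heparin and 9.85 in peptide. The treated arrays stood in the opposite order to that of Psmb8, with the highest value in peptide: 1.66-fold above control with heparin and 2.05-fold with peptide. Psmb10, which takes the place of Psmb7, read 7.17, 7.99 and 7.95, with the treated arrays close together and 1.78-fold and 1.73-fold above control.

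The constitutive subunits replaced by these did not show such differences. Psmb5 read 10.33 in control, 10.31 in heparin and 10.44 in peptide, and Psmb7 read 10.52, 10.58 and 10.41. Psmb6 was not analysed here. Of 13 constitutive subunits of the 20S core on the array, all measured, 0 were 2-fold apart from control with either treatment. Their median difference was 0.00 with heparin and 0.00 with peptide. The largest difference was that of Psmb3, -0.31 with heparin. Neither did the 18 subunits of the 19S regulator include any at 2-fold, and the largest there was Psmd3 at -0.29 with heparin. The assembly factors and other activators (7 genes) had 0 at 2-fold, and the largest was Psmg3 at -0.19 with heparin. In lists this short, a count of 0 is near the share of all measured genes. At least 2-fold higher were 1.06% of all genes with heparin and 0.723% with peptide. Genes at least 2-fold lower were counted only among those with a promoter sequence, at 55 of 7762 with heparin and 9 of 7786 with peptide. Pomp, an assembly factor of the proteasome core and not of the immunoproteasome alone, read 11.47 on all 3 arrays.

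Of the activator subunits, Psme2 differed more than its partner Psme1. Psme2 read 10.33 in control, 11.02 in heparin and 10.61 in peptide, 1.62-fold and 1.22-fold above control. Psme1 read 11.08, 11.34 and 11.21, 1.20-fold and 1.10-fold above control, differences smaller than the SD over all genes in each comparison. In both genes the order of the arrays was control, peptide, heparin. A second probe set of Psme1 sat at the lowest value, 2.18, on all 3 arrays and carries no information on the gene.

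Tap1, whose product binds ATP and peptide as part of the transporter, was the member with a 2-fold difference in both treatments that reached the array median throughout. It read 7.65 in control, 9.23 in heparin and 8.92 in peptide. Both treated arrays were well above control and near each other, at 2.98-fold and 2.40-fold. Larger differences were found for 36 genes with heparin and for 38 with peptide. These values rest on 1 of its probe sets, since the second read 2.22 on all 3 arrays. With the mean of the pair in its place the differences were 0.79 and 0.63 on the log2 scale.

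Tap2, the other subunit of the transporter, read 8.04 in control, 8.78 in heparin and 9.07 in peptide. It was 1.67-fold and 2.05-fold above control, highest in peptide as Psmb9 was. Psmb9 and Tap2 were the closest pair among the 9 measured members: their differences from control were 0.73 and 0.74 with heparin and 1.04 and 1.04 with peptide. Tapbp read 7.21, 7.62 and 7.61, 1.32-fold above control in each treated pool. B2m was measured by 2 probe sets, whose differences were unequal in size. The brighter read 14.22 in control, 14.42 in heparin and 14.28 in peptide, 1.15-fold and 1.04-fold above control, and the other read 11.85, 12.54 and 12.15, 1.60-fold and 1.23-fold above. Both put the arrays in the order control, peptide, heparin.

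Nlrc5 was the member with the largest heparin value over control, but its control value can serve only as a bound. It read 4.14 in control, 5.98 in heparin and 5.32 in peptide. The control value lay under the array median by 0.0015 only, so the gene was not counted as measured against control. Set against that median, and on the values as deposited only, Nlrc5 was at least 3.57-fold higher with heparin and at least 2.27-fold higher with peptide. These are ratios of low values and not firm lower limits. Adding 32 to the unlogged values lowered the log2 difference between heparin and peptide from 0.65 to 0.40. The differences of Nlrc5 from control were not recomputed with 32 added. Its plain log2 differences were 1.84 and 1.18, and a filter at the 40th percentile counted the gene, which made 3 of 10 members 2-fold higher with heparin (1.08% of all genes under that filter) and 4 of 10 with peptide (0.724%).

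**Figure D3:**
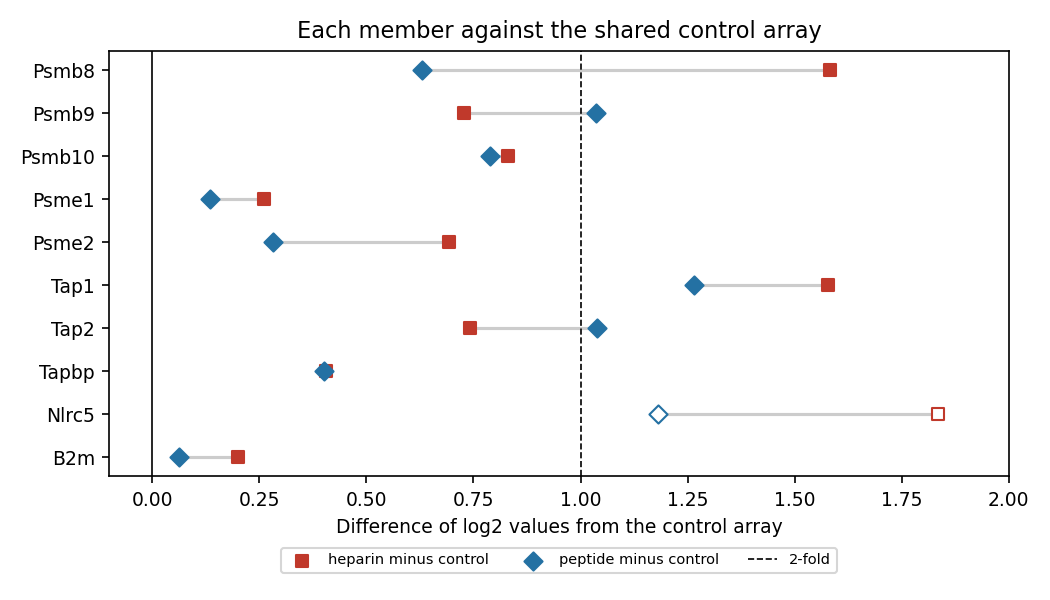
Difference of log2 values from the control array for each member's representative probe set, with heparin as squares and peptide as diamonds; the dashed line marks 2-fold, and open symbols mark Nlrc5, whose control value was under the array median. All symbols lie to the right of 0; Psmb8 and Tap1 with heparin, and Tap1, Tap2 and Psmb9 with peptide, lie beyond 2-fold among the filled ones.

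Heparin and peptide were then compared directly, a comparison without the control array. All 10 members were measured, and 0 of 10 were at least 2-fold apart, against 1.13% of 9240 measured genes. The members' median was 0.13, with 8 higher in heparin and 2 lower, while 26.8% of all genes were higher, 43.7% were lower and the median was 0.00 (SD over genes 0.29). Psmb8 came nearest to 2-fold, at 0.95 (1.94-fold higher in heparin), and 33 genes had a larger positive difference. After quantile normalization it was 1.01. Nlrc5 was 0.65 on the log2 scale (1.57-fold) higher in heparin, or 0.40 with 32 added to the unlogged values, and Psme2 was 1.33-fold higher. Tap1 was 0.31 higher on the log2 scale, whereas Psmb9 (-0.31) and Tap2 (-0.30) were lower in heparin. Psmb10 (0.04) and Tapbp (0.01) were nearly equal, and Psme1 (0.13) and B2m (0.14) differed little. Within the block of 4 neighbouring genes on chromosome 20 the outer genes, Tap2 and Psmb9, were thus higher in peptide and the inner genes, Psmb8 and Tap1, higher in heparin. None of these differences has a replicate.

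**Figure D4:**
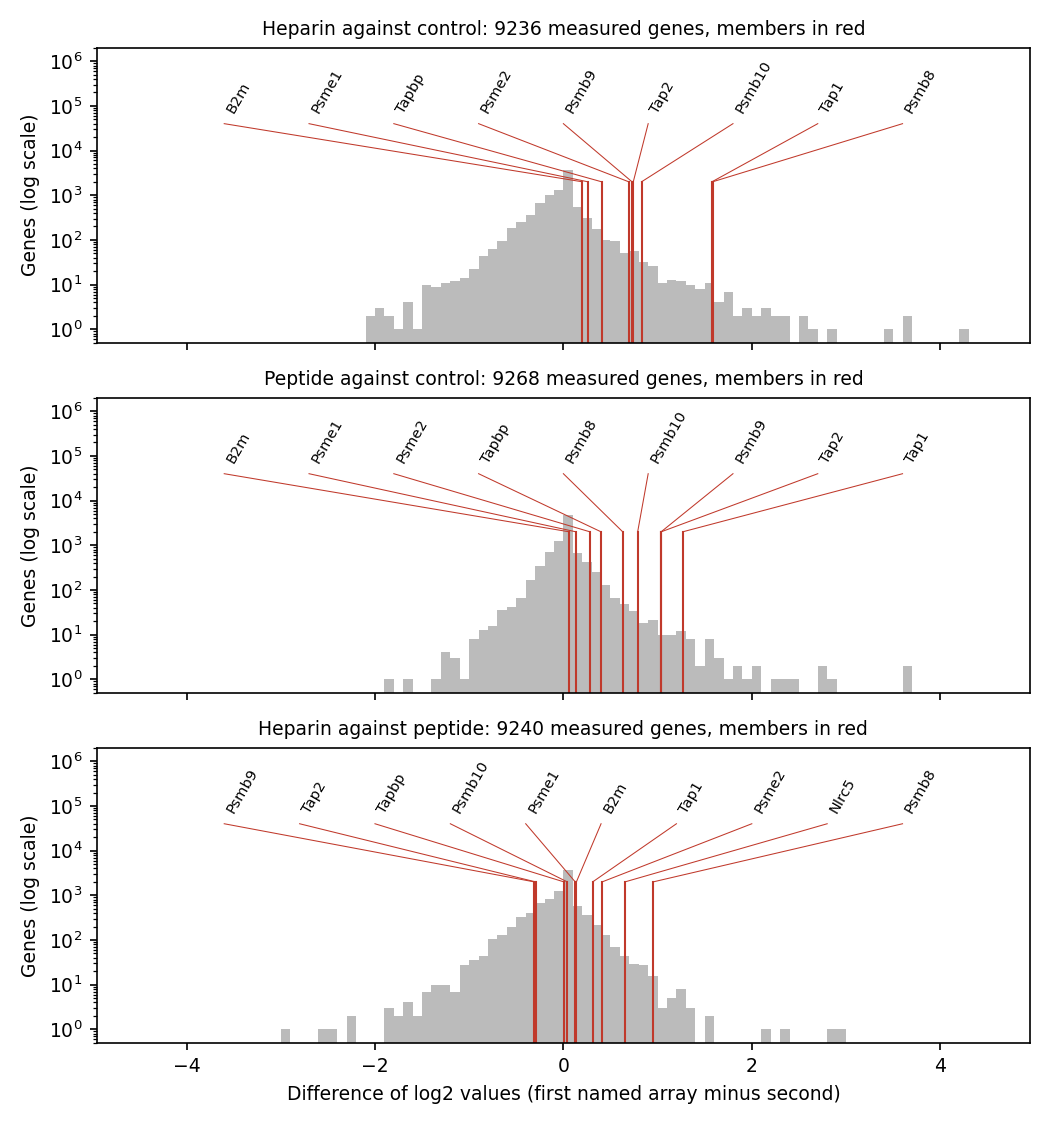
Distribution of log2 differences over all measured genes (grey, count on a log scale, 0.1 per bar) for the 3 comparisons, with each measured member as a red line. The members lie right of 0 in the comparisons with control, from 0.20 to 1.58 with heparin and from 0.06 to 1.27 with peptide, and on both sides of 0, from -0.31 to 0.95, between the treatments.

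The members also differed from most genes in having distinct values. Of 9231 genes measured on all 3 arrays, 54.3% had an identical value on at least 2 arrays, which can come from the summarisation of probes. Of the 9 members measured on all 3, 0 did.

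The rest of the loading pathway was read from 15 further genes, of which 14 were measured and 0 were 2-fold apart from control with either treatment. For so few genes this is near the share of all genes (1.06% at least 2-fold higher with heparin, 0.723% with peptide, and lower genes as given above). The median of the 14 was -0.09 with heparin and 0.00 with peptide. Calreticulin (Calr), a chaperone of the loading complex, read 11.64 in control, 11.61 in heparin and 11.64 in peptide. Pdia3, the disulfide isomerase bound to tapasin, read 12.48, 12.39 and 12.44. Erap1, which trims peptides in the endoplasmic reticulum, was 0.21 higher with heparin and differed by -0.04 with peptide. The largest difference was that of the cytosolic peptidase Thop1, -0.53 with heparin and 0.00 with peptide. In class II presentation, read here as a neighbouring pathway, 9 of 10 genes were measured and 0 were 2-fold apart, again near the share of all genes. By the probe set that stands for each gene, 9 were higher with peptide (32% of all genes), with a median of 0.16, and 6 were higher and 1 lower with heparin (25.8% and 44.2% of all), with a median of 0.06. Some other probe sets went the other way with peptide. The second of RT1-Bb read 7.47 in control, 7.56 in heparin and 3.73 in peptide, and 1 of RT1-Ba read 9.15, 8.98 and 8.19. The second of RT1-Db1 was higher with peptide, at 7.90, 7.90 and 8.37. The largest difference among the representative probe sets with peptide was that of RT1-DMb, part of a class II peptide editor, whose gene lies next to Psmb9 on chromosome 20, at 0.56 (0.43 with heparin), and with heparin that of RT1-Da at 0.47. Ciita, the class II counterpart of Nlrc5, read 3.16 on all 3 arrays, below the array median.

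Regulators of the class I genes had a median of 0.15 with heparin and 0.11 with peptide over 17 measured genes. With heparin 10 were higher and 4 lower (25.8% and 44.2% of all genes), and 2 were at least 2-fold higher (1.06% of all). With peptide 10 were higher and 4 lower (32% and 28.5% of all genes), and 1 was at least 2-fold higher (0.723% of all). Irf7, a transcription factor of the type I interferon response, read 10.22 in control, 12.31 in heparin and 11.90 in peptide. Stat2, part of the complex that binds the ISRE, read 8.92, 10.02 and 9.83, and its other probe set was also higher in both. Irf1, which binds ISRE letters in the promoters of Tap1 and Psmb9 in other systems, read 9.40, 9.95 and 9.93. Rfx5, part of the complex through which Nlrc5 acts, read 8.35, 8.51 and 8.60. On the interferon gamma path, Ifng itself sat at the lowest value on all 3 arrays. The list read for this path also holds Ifnar1, Ifnar2 and Tyk2 of the type I interferon receptor path. In this list 0 of 9 measured genes were 2-fold higher, near the share of all genes. Ifnar1, a chain of the type I interferon receptor, was lower by 1.12 with heparin and by 0.75 with peptide in the probe set that stands for it, while its 5 others differed by at most 0.04.

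**Figure D5:**
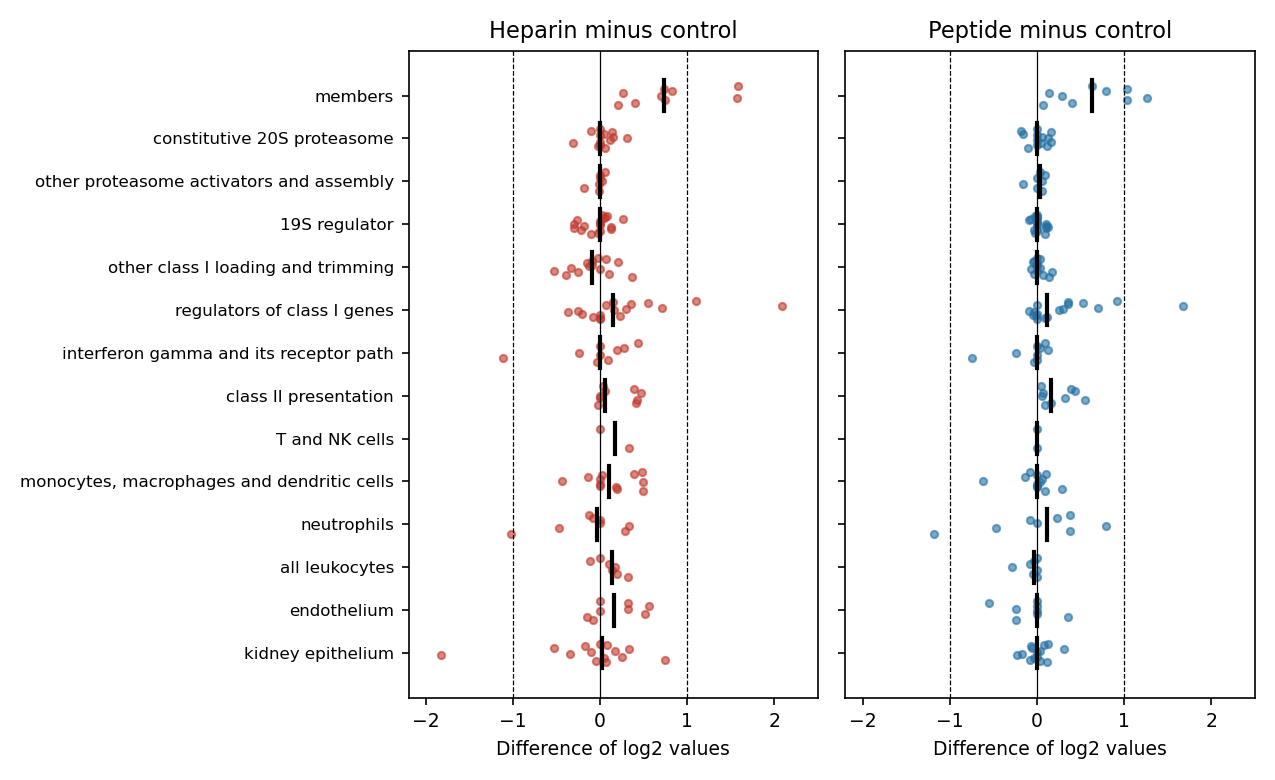
Log2 differences from control of every measured gene in each list (dots) with the list's median (black bar), for heparin on the left and peptide on the right; dashed lines mark 2-fold. The members' medians, 0.73 and 0.63, lie to the right of those of the other lists, the next being T and NK cells with 2 genes and the endothelium at 0.16 with heparin and class II at 0.16 with peptide.

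Leukocytes carry much of this machinery, so their markers are given beside these values. Of 8 general leukocyte genes, 7 were measured, and their median was 0.14 with heparin (5 higher, 1 lower) and -0.03 with peptide (0 higher, 4 lower). Of all measured genes, 25.8% were higher and 44.2% lower with heparin, and 32% and 28.5% with peptide. Ptprc, which encodes CD45, read 9.49 on all 3 arrays. The sum of the unlogged values of the general leukocyte genes was 3506 in control, 3827 in heparin and 3363 in peptide. Of 17 T and NK cell genes on the array 2 were measured, Cd3d, Cd4, Cd8b, Klrd1, Klrb1a and Ncr1 were at the lowest value on every array, and the sum was 173, 185 and 173. Monocyte, macrophage and dendritic cell genes had 12 of 15 measured, medians of 0.10 and 0.00, Cd163 at the lowest value and sums of 13928, 18732 and 14144. Lyz2 alone made up 80.9%, 84.6% and 81.8% of these sums, which without it were 2655, 2882 and 2568. Of 5 B cell genes 0 were measured, Cd79b, Ms4a1 and Blk were at the lowest value, and the sums were 23.3, 24.2 and 23.3. Neutrophil genes had 8 of 9 measured, medians of -0.04 and 0.12, Camp at the lowest value and sums of 14318, 12935 and 16509. Endothelial genes, 8 of 9 measured, had medians of 0.16 and 0.00, none at the lowest value and sums of 4013, 4812 and 3475. Of the markers, Lcn2, made by neutrophils and injured tubules, was at -1.03 with heparin and -1.18 with peptide, and Calb1 of the connecting tubule at -1.83 with heparin. The largest differences in the remaining lists were those of Arhgdib (0.32 with heparin), Gzmb (0.34), Flt1 (0.56) and Itgax (-0.62 with peptide). That of Flt1 rests on 1 of 3 probe sets, the others being at 0.09 and 0.00 with heparin. Kdr, also endothelial, was at 0.32 with heparin and -0.56 with peptide. The kidney epithelial sum was 79772, 83123 and 83221, with medians of 0.02 and 0.00. In the peptide pool the median was 0.12 for neutrophil genes, 0.00 for macrophage and endothelial genes and -0.03 for general leukocyte genes. In the heparin pool macrophage, general leukocyte and endothelial genes had medians above 0, and neutrophil genes one of -0.04. The part of these cells in the members' differences was not tested.

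Genes with the pattern most like a member's were sought by the distance between pairs of differences from control, over 3 arrays and 9178 genes, for the 4 members with a 2-fold difference. Nearest to Tap1 were Rtp4 (distance 0.05 on the log2 scale), Oas1b (0.06) and Ifit2 (0.07). Rtp4 read 8.79 in control, 10.33 in heparin and 10.01 in peptide. Psmb9 and Tap2 lay only 0.013 apart in these same differences, so they had the same nearest genes, Apobec1 (0.09 from each), Parp14 and Melk. Parp14 read 8.82, 9.69 and 9.85, with peptide highest as for this pair. Nearest to Psmb8 were Anxa8 (0.10), Depp1 (0.15) and Lgals9 (0.20), of which Lgals9 read 7.20, 8.91 and 7.97.

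The ISRE core was also counted over the promoters of all measured genes, to place the members' share. Of 7762 genes measured in heparin against control with a promoter in the table, 2.69% held it in the 250 bases before the start. Of 78 such genes at least 2-fold higher with heparin, members left out, 30.8% held it, and of 55 at least 2-fold lower, 3.64%. With peptide the shares were 2.68% of 7786 measured genes, 38% of 50 that were at least 2-fold higher, and 0 of 9 that were lower. The members holding it spanned most of the range of differences, from B2m to Tap1, and Psmb9, at 1.04 with peptide, and Psmb8, at 1.58 with heparin, did not hold it in these 250 bases. The interferon gamma activated site was in 6.13% of the measured genes and 11.5% of the 2-fold higher ones with heparin, and in 6.16% and 18% with peptide, members again left out of the higher genes. No test was made of these shares.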

How the data were processed

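Expression was measured on 3 arrays, 1 per group, each with pooled RNA of 3 kidneys. The authors deposited log2 values, 1 per probe set and array, made with GCRMA per the submitters' processing notes, which name no version. How it was set, and whether arrays were normalized together, is not given in the sources read, and nothing was rescaled. Arrays have no read depth, and their number limits the precision. Where a gene had several probe sets, the brightest on average stood for it. A gene was measured when at or above the array median (50th percentile) on both arrays, and a difference of 2-fold was counted, with no test. All 10 members were named with all probe sets, and from each other list up to 3 genes at 2-fold or else the 1 with the largest difference, besides Psmb5, Psmb6, Psmb7, Irf1 and Rfx5 and the 3 genes nearest to a member at 2-fold. Other genes named (Calr, Pdia3, Erap1, Pomp, Ciita, Ptprc, Kdr, Lyz2, RT1-Da, RT1-Ba, RT1-Bb, RT1-Db1 and those at the lowest value) were chosen after their values were seen. Members, lists and motifs were chosen with earlier results of these data known. Of 194 list entries 179 matched a gene on the array. Some listed genes are not reported here. "At the lowest value" means within 0.01 of it on each array. Counting was tested on simulated data. Alternatives covered the filter, the probe set rule, scaling, an offset of 32 and a fold of 1.5. Symbols come from the platform annotation, neighbours and promoters from RefSeq (GRCr8). Python 3.11.15, numpy 2.4.6 and pandas 2.3.3 were used.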

Additional observations from a re-analysis of the deposited data

How the results depend on the processing

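Of 223 member differences recomputed under 8 other settings, 0 changed sign, 7 crossed 2-fold and 16 moved by more than 0.1 on the log2 scale. Many of the 223 could not move. The filter settings decide only whether a gene is counted. The probe set rules can alter only Psme1, Tap1 and B2m, which have a second probe set. With probe sets averaged per gene, 1 member was at least 2-fold higher with heparin (0.943% of all genes), where it was 2, and 2 with peptide (0.723%), where it was 3, because the uninformative probe set of Tap1 then counts. Adding 32 to the unlogged values left 1 member at 2-fold with peptide, where it was 3, as Psmb9 (0.99) and Tap2 (0.95) were just short. After quantile normalization Psmb9 with peptide was 1.00 when rounded and also just short. Between heparin and peptide, 1 member (Psmb8) was 2-fold apart after quantile normalization and 1 after centring on the median of measured genes (1.01 each), where it was 0. Counting at 1.5-fold gave 6 members for heparin, 5 for peptide and 2 between the treatments, beside 6.19% of all genes. The members' median ranged from 0.68 to 0.77 with heparin, from 0.57 to 0.71 with peptide and from 0.11 to 0.22 between treatments, and that of all genes moved by at most 0.06. No paired analysis was possible because each group has 1 array. For the same reason no replicate could be left out, and values moved by under 0.1 were taken as unmoved. Values near the common lowest value limit what can be read of Ifng, Ciita and lymphocyte markers.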
